A study of Homo sapiens with 12 samples.

Results

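The genes described here encode the proteins of the mitochondrial ribosome. They were taken as every row of the deposited count table whose symbol is MRPL or MRPS followed by a number and, at most, a letter A to C. This gave 77 genes of 23434 rows, 49 with an MRPL symbol and 28 with an MRPS symbol, spread over 21 chromosomes. The mitochondrial ribosome translates the few messenger RNAs of the mitochondrial genome, which encode core subunits of the respiratory chain and of ATP synthase. Its ribosomal RNAs are made inside the organelle, whereas its proteins are encoded in the nucleus, translated in the cytosol and imported. MRPL names mark proteins of the large subunit and MRPS names those of the small subunit, except that MRPS18A and MRPS30 are known to encode large-subunit proteins. Below, the groups follow the symbols. Genes of ribosome biogenesis and mitochondrial function are well-known targets of the transcription factor MYC, which binds DNA at E-box elements.

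Nascent RNA was sequenced in U2OS-MycER, an osteosarcoma cell line of human origin in which MYC is expressed as a fusion with the estrogen receptor's hormone-binding domain. The fusion is inactive until 4-hydroxytamoxifen (OHT) is added. There were 4 groups of 3 libraries. The shNT libraries came from cells with a doxycycline-inducible control shRNA, and the shCDK12 libraries from cells with an shRNA against CDK12, a kinase that phosphorylates the tail of RNA polymerase II during elongation. The shNT_OHT and shCDK12_OHT libraries came from the same kinds of cells given 300 nM OHT for 40 h. All 12 samples received 1 µg/mL doxycycline, were blocked with 100 ng/mL nocodazole for 8 h, released for 12 h and pulsed with 0.5 mM 5-ethynyl-uridine for 2 h. Before the labelled transcripts were captured, 40 µg of their RNA was mixed with 10 µg of mouse RNA. The count table holds no mouse rows, so each value is a share of a library and a change in the total output of RNA could not be seen. In these bulk samples, fewer cells and less RNA per cell cannot be told apart. Nothing in the labels says that replicates came from separate cultures, and p-values measure the spread between these libraries, which may be technical.

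Library totals ran from 1251695 counts in shNT_OHT replicate 2 to 10447836 counts in shCDK12_OHT replicate 2, an 8.35-fold range. The median member had 66 counts in the shallowest library and 434 counts in the deepest. Levels are given as CPM, counts divided by the size of their library after scaling by the trimmed mean of M values (TMM). Fold changes are on the log2 scale, with a standard error (SE) and a Benjamini-Hochberg adjusted p over all genes tested by edgeR's quasi-likelihood test. A gene was called at an adjusted p under 0.05. Genes with a mean normalized count of 32 or less over the libraries of a comparison were not tested.

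The gene targeted by the shRNA went against a label. CDK12 had 323, 289 and 300.2 CPM in the shNT libraries and 293, 277 and 298 CPM in the libraries labelled shCDK12. The groups overlapped, with a log2 fold change of -0.08 (SE 0.08, edgeR adjusted p = 0.447). In shNT_OHT, CDK12 had 434, 356 and 400.5 CPM, and in the libraries labelled shCDK12_OHT it had 215, 208 and 218 CPM. It fell by 0.88 on the log2 scale there (SE 0.11, edgeR adjusted p = 0.00011). Libraries of the shCDK12 arm are therefore called by their labels throughout, and each direction drawn from them rests on those labels. Of the markers of the labelled line, VIM, COL1A1, SPARC, FN1 and RUNX2 were detected in all 12 libraries, whereas COL1A2 had at most 5 counts. In shNT, FN1 (fibronectin) stood at 659 ± 8.60 CPM (SD, n = 3), whereas the libraries labelled shCDK12 gave 38.2 ± 2.93 CPM. VIM, COL1A1, SPARC and RUNX2 also fell there, with log2 fold changes of -0.85, -1.80, -1.22 and -1.85 (edgeR adjusted p = 4.69e-09, 2.84e-13, 2.2e-10 and 6.68e-14). In the libraries labelled shCDK12_OHT against shNT_OHT, FN1, VIM and COL1A1 fell, with log2 fold changes of -1.78, -0.91 and -0.58 (edgeR adjusted p = 6.27e-06, 7.02e-05 and 0.00685). SPARC and RUNX2 did not pass there, at -0.03 and -0.28 (edgeR adjusted p = 0.878 and 0.0968). In shNT_OHT against shNT, FN1, COL1A1, SPARC and RUNX2 fell as well, with log2 fold changes of -0.93, -0.80, -0.53 and -0.70 (edgeR adjusted p = 0.000135, 0.00235, 0.0139 and 0.00399), and VIM had 0.03 (edgeR adjusted p = 0.892). MYC, whose counts may come from the endogenous gene or the transgene, fell by 0.90 on the log2 scale in the libraries labelled shCDK12 against shNT (edgeR adjusted p = 1.8e-10), from 2221, 2044 and 2013 CPM to 1214, 1035 and 1122 CPM. It stood at 2091, 2095 and 2000 CPM under the label shCDK12_OHT and at 2199, 1706 and 1997 CPM in shNT_OHT, with an interaction term of 0.96 (edgeR adjusted p = 7.93e-06). Among markers of other cell types, PTPRC, ALB and SOX10 had at most 12 counts in a library and CDH1 had group means of 6.10 to 9.57 CPM. EPCAM, an epithelial adhesion protein, had 7.88, 9.55 and 6.66 CPM in the libraries labelled shCDK12, above all others, with group means of 0.82 CPM in shNT, 1.58 CPM in shNT_OHT and 2.64 CPM under the label shCDK12_OHT. KRT18, a keratin, had group means from 432 to 553 CPM. In the libraries labelled shCDK12_OHT against those labelled shCDK12, FN1, RUNX2, SPARC and COL1A1 rose. Their log2 fold changes were 1.39, 0.84, 0.64 and 0.405 (edgeR adjusted p of at most 0.003132). EPCAM had -1.60 there (edgeR adjusted p = 6.08e-05) and VIM -0.05 (edgeR adjusted p = 0.646). FN1, RUNX2, SPARC and COL1A1 had interaction terms of 2.31, 1.54, 1.17 and 1.20 (edgeR adjusted p of at most 1.603e-05), and VIM -0.08 (edgeR adjusted p = 0.657). The part of these marker differences in the results was not tested.

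RefSeq promoter windows of 300 bases (GRCh38.p14), from 250 bases before to 50 bases after the annotated start, were found for 69 of the 77 members. The others were MRPL2, MRPL10, MRPL13, MRPL15, MRPL21, MRPL23, MRPL35 and MRPS28. Both strands were searched for the E-box CACGTG, the NRF1 core GCGCATGC, the ETS core CCGGAAG and the YY1-like element AAGATGGCG. None of the 4 words contains another. The ETS core lay in 29 of the 69 windows (42.0%), against 10.7% of all 27305 windows, and the YY1-like element in 13 (18.8%), against 1.85%. The NRF1 core was found in 6 (8.70%), against 3.27%. The E-box was found in 6 (8.70%), against 7.43% of all windows. The 27305 windows were not filtered by expression or by testing here, so they are not matched to the members. Of the 15 members called higher in shNT_OHT below, 1 window (6.67%), that of MRPL36, held an E-box, and of the 48 other members tested there with a window, 4 (8.33%) did, those of MRPL22, MRPL37, MRPL45 and MRPL49. MRPL22, MRPL36, MRPL37 and MRPL45 are named after their values were seen. A match is a run of letters and not a bound site, and no match says only that these letters are not in the window.

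The windows of 6 members are printed 5′ to 3′ on the strand of the gene, with matches to the 4 words in capitals. They belong to MRPS17, MRPL4 and MRPS26, which had the 3 most negative interaction terms below, to MRPS34, which had the largest change in the libraries labelled shCDK12, and to MRPL32 and MRPL49, which are among the 3 members with the highest CPM. The windows lie at chr7:55951627-55951926 (plus strand) for MRPS17, chr19:10251701-10252000 (plus strand) for MRPL4, chr20:3045802-3046101 (plus strand) for MRPS26, chr16:1773085-1773384 (minus strand) for MRPS34, chr7:42932126-42932425 (plus strand) for MRPL32 and chr11:65121933-65122232 (plus strand) for MRPL49.
MRPS17: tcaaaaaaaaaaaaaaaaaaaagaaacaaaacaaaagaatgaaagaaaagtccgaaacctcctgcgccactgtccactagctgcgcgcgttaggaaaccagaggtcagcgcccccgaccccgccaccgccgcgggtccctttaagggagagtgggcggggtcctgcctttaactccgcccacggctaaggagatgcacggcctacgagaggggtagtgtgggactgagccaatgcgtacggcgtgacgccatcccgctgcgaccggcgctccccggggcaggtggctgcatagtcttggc
MRPL4: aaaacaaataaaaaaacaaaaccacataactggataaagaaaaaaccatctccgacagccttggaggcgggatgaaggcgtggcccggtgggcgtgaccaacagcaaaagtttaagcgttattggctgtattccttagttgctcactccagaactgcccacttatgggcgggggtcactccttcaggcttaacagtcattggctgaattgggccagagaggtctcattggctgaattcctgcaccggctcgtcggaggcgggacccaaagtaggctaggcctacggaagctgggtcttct
MRPS26: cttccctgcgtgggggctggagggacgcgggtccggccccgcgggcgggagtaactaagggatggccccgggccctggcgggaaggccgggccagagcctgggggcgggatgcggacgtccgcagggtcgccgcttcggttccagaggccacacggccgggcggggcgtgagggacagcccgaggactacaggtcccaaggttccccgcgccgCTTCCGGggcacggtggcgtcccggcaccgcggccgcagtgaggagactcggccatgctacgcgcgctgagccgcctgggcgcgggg
MRPS34: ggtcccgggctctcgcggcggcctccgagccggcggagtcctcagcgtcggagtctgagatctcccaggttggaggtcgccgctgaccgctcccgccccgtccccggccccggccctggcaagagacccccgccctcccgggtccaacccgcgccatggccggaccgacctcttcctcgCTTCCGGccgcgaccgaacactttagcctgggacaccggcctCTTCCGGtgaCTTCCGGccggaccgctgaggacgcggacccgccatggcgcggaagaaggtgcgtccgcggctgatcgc
MRPL32: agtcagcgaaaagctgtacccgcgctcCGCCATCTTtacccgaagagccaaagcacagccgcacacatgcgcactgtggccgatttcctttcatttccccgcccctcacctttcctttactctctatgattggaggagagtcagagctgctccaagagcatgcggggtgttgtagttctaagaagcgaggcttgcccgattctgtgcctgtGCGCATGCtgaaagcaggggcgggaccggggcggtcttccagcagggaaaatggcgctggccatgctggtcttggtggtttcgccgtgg
MRPL49: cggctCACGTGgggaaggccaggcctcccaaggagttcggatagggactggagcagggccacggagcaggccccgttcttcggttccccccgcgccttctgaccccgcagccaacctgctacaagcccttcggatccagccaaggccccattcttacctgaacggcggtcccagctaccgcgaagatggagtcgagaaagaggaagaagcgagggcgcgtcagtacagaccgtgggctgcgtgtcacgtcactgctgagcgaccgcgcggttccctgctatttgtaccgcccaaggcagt
MRPS17 and MRPL4 held none of the 4 words. MRPS26 held 1 ETS core and MRPS34 held 3, all on the opposite strand, at 37 bases before the start in MRPS26 and at 71, 29 and 19 bases before it in MRPS34. MRPL32 held an NRF1 core 39 bases before the start and a YY1-like element 223 bases before it. MRPL49 held an E-box 245 bases before the start. Of the 69 members with a window, 18 had a protein-coding gene that starts upstream on the opposite strand within 1000 bases. MRPL46 and MRPS11, 320 bases apart, are the only such pair in which both genes are members. MRPL49 starts 49 bases from FAU, which encodes a protein of the cytosolic small subunit fused to a ubiquitin-like domain.

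Members differed widely in level. Over the 12 libraries, the median member had 33.5 CPM per kilobase of exon, with quartiles of 16.8 and 53.5 CPM per kilobase. The medians of MRPL and MRPS genes were close, at 32.6 and 35.7 CPM per kilobase. MRPL32 was highest on this scale over the 12 libraries, at 201 CPM per kilobase. In the libraries labelled shCDK12_OHT alone, MRPL51 stood above it, at 159.6 against 155.5 CPM per kilobase. MRPL32 encodes a large-subunit protein whose cleavage by the m-AAA protease is known to be needed for ribosome assembly. The 3 members with the highest mean CPM over the 12 libraries, with no correction for length, were MRPL49 at 235 CPM, MRPS16 at 186.5 CPM and MRPL32 at 173 CPM. The order differed by group. MRPL50 was highest in the libraries labelled shCDK12 and in those labelled shCDK12_OHT, at 196 and 184 CPM. At the other end, MRPL53 had 0 counts in all 12 libraries, and MRPS24 had at most 2 counts in a library. Of the exon bases of MRPS24, 90.9% are shared with the readthrough gene URGCP-MRPS24 on the same strand (GENCODE v44). MRPL12, which encodes the stalk protein that recruits translation factors, had 11 to 43 counts in a library, and 69.5% of its exon bases overlap a gene on the same strand. MRPL38, a large-subunit protein, had 4 to 70 counts. In all, 13 members share exon bases with another gene on the same strand and 25 on either strand. How the counting treated shared bases is not given in the sources used here, and the levels of these genes are uncertain to that extent.

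Adding OHT to the shNT cells asks how nascent transcription of these genes responds to MycER activation. Of the 77 members, 69 passed the filter, and 15 of these were higher in shNT_OHT (21.7%), against 9.05% of the 10272 genes tested. None was called lower, against 8.29% of all genes, and 17.3% of all genes were called in either direction. At an unadjusted p under 0.05, edgeR placed 24 members higher and 0 lower, and 3316 of the 10272 genes in either direction. DESeq2 called 16 members higher (23.2%) and 0 lower, against 10.6% and 7.68% of all genes. The fold change was positive for 62 of 69 members, with a median of 0.31, whereas the median of all genes was -0.03. Among the MRPS genes 9 of 25 rose, and among the MRPL genes 6 of 44 did. In each of the 15 called members the 3 shNT_OHT libraries lay above the 3 shNT libraries, as they did in 98.3% of the 930 genes called higher. The members that failed the filter were MRPL1, MRPL12, MRPL23, MRPL38, MRPL53, MRPS18C, MRPS24 and MRPS28.

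**Figure D1:**
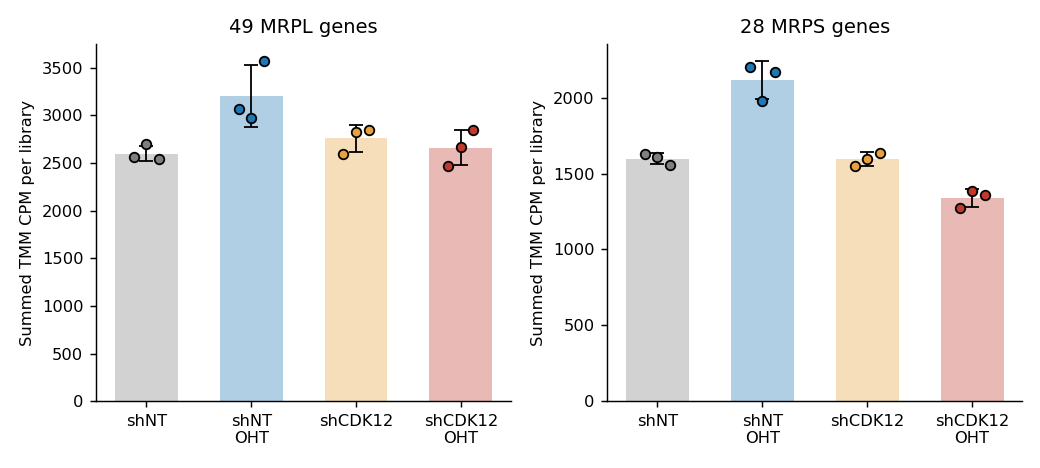
Summed TMM CPM of the 49 MRPL genes (left) and the 28 MRPS genes (right) in each of the 12 libraries, by group. Points are libraries, bars are group means and error bars are SD (n = 3), and the MRPS sum runs from 1270 CPM in shCDK12_OHT to 2204 CPM in shNT_OHT.

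The summed level of all members showed the same order of groups. It was 4189, 4301 and 4102 CPM in shNT and 5267, 4950 and 5740 CPM in shNT_OHT, so that the 3 shNT_OHT libraries stood above all others. In the libraries labelled shCDK12 it was 4147, 4426 and 4483 CPM, and in those labelled shCDK12_OHT it was 3742, 4052 and 4201 CPM, with an overlap between them. For MRPS genes alone, the sum was 1598 ± 35.3 CPM in shNT, 2117 ± 124 CPM in shNT_OHT, 1594 ± 45.2 CPM in libraries labelled shCDK12 and 1337 ± 60.2 CPM with the label shCDK12_OHT (SD, n = 3). The MRPS sums of shNT and of the libraries labelled shCDK12 overlapped, with an order of means that turned with plain library totals (1599 and 1629 CPM), and those labelled shCDK12_OHT lay below all others. For MRPL genes, the group means were 2599 ± 83.4, 3202 ± 321, 2757 ± 137 and 2661 ± 187 CPM in the same order, and the libraries labelled shCDK12_OHT overlapped with shNT and with those labelled shCDK12. These sums are a description, since members are not replicates.

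The 3 members with the largest increase upon OHT in shNT cells were MRPS26, MRPS17 and MRPL55. MRPS26, a small-subunit protein found only in mitochondrial ribosomes, had 22.7, 27.9 and 17.0 CPM in shNT and 47.0, 38.8 and 49.3 CPM in shNT_OHT. The lowest treated library lay above the highest control, which the rule for naming members required. The log2 fold change of MRPS26 was 0.98 (SE 0.22, edgeR adjusted p = 0.00766). MRPS17, which has a bacterial counterpart that binds the small-subunit ribosomal RNA, had 64.2, 50.4 and 55.6 CPM in shNT and 109, 95.7 and 118 CPM in shNT_OHT. It rose by a log2 fold change of 0.93 (SE 0.16, edgeR adjusted p = 0.0018). MRPL55, a large-subunit protein, had 17.6, 16.4 and 8.52 CPM in shNT and 35.7, 21.5 and 24.1 CPM in shNT_OHT, at a log2 fold change of 0.91 (SE 0.30, edgeR adjusted p = 0.0494). That call was lost without any of shNT replicates 1, 2 and 3 or shNT_OHT replicates 1 and 3, where the edgeR adjusted p reached 0.179. MRPS17 and MRPS26 stayed past the threshold without any of the 6 libraries, with adjusted p of at most 0.0242 and 0.0480.

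Several other named members did not pass the test in this comparison. MRPS12, the counterpart of the bacterial decoding-site protein S12, had 45.0, 43.5 and 45.1 CPM in shNT and 59.5, 56.1 and 56.8 CPM in shNT_OHT. Its groups did not overlap, and its edgeR adjusted p was 0.148 at a log2 fold change of 0.37. MRPL58, a peptidyl-tRNA hydrolase that became a ribosomal protein, had a log2 fold change of 0.37 (edgeR adjusted p = 0.199). MRPS18A and MRPS18B, which with MRPS18C are the 3 human homologs of bacterial S18, had log2 fold changes of 0.29 and 0.31 (edgeR adjusted p = 0.275 and 0.205). MRPL3, a core protein of the large subunit, had 73.1, 80.4 and 65.2 CPM in shNT and 36.0, 106 and 87.3 CPM in shNT_OHT. Its replicate 1 of shNT_OHT was under 50% of both others, which also held for MRPS6 in the same library and for no other member of that library. MRPS16 and MRPL49 had log2 fold changes of 0.10 and 0.33 (edgeR adjusted p = 0.617 and 0.106).

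The number of called members changed when a library was left out. Leaving out shNT replicate 2 gave 4 members (5.80%), against 3.98% of all genes called higher in that fit, so that most of the excess over all genes was lost. Leaving out shNT replicate 1 or 3 gave 8 (11.6%), against 4.39% and 4.52% of all genes. Leaving out shNT_OHT replicate 3 gave 10 (14.5%), against 6.25% of all genes, and leaving out shNT_OHT replicate 2, the shallowest library, gave 23 (33.3%), against 12.3%. No member was called lower in any of these fits. Gene length and base composition moved with the response. Across the 10249 genes with a span, the log2 fold change had a Pearson r of -0.292 with log2 gene span, and across 10147 genes an r of 0.271 with GC content of the exons. Across the 69 members these were -0.21 and 0.441, and genes are not independent replicates. With the length trend removed, 11 members (15.9%) were called higher, against 8.31% of all genes, and the median was 0.19. With length and GC trends removed, 14 (20.3%) were called higher, against 12.7% of all genes, so that the members stood less far above all genes than with neither trend removed. The median was then 0.18, against 0.005 for all genes.

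**Figure D2:**
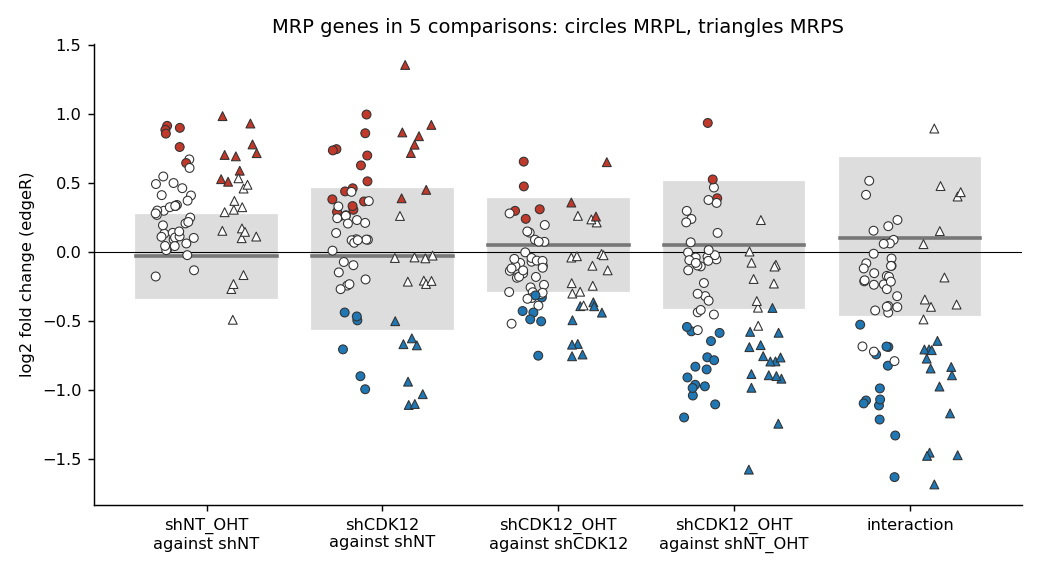
Log2 fold changes (vertical axis) of the tested MRP genes in 4 comparisons and the interaction, circles for MRPL and triangles for MRPS. Red and blue mark genes called higher and lower by edgeR, white genes did not pass, and grey boxes with a line are the quartiles and median of all genes tested. In shNT_OHT against shNT 15 members are red and none blue, and in the interaction 27 are blue and none red.

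The libraries labelled shCDK12 were set against shNT to ask what CDK12 silencing does without MycER activation. CDK12 itself did not pass the test there. This was the comparison with the most calls across all genes, at 62.0% of 11718 genes, 29.6% higher and 32.4% lower. Of 70 members tested, 23 were higher (32.9%) and 14 lower, and the median log2 fold change was 0.09, against -0.03 for all genes. Without single libraries this median ran from 0.0629 to 0.175, and with upper-quartile scaling it was 0.1811. The MRPL genes counted 15 higher and 6 lower of 45, and the MRPS genes 8 higher and 8 lower of 25.

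MRPS34, a small-subunit protein without a bacterial counterpart, had the largest increase among members in this comparison. It had 39.4, 42.0 and 56.1 CPM in shNT and 93.1, 123 and 126 CPM in the libraries labelled shCDK12. The groups were far apart, with a log2 fold change of 1.35 (SE 0.14, edgeR adjusted p = 1.13e-08). Of the exon bases of MRPS34, 32.6% overlap EME2 on the opposite strand. MRPL34, the counterpart of bacterial L34, rose from 16.5 ± 3.55 to 33.7 ± 4.98 CPM (SD, n = 3, log2 fold change 0.99, edgeR adjusted p = 6.2e-05). MRPS35, a small-subunit protein, rose from 50.5 ± 12.2 to 96.8 ± 7.61 CPM (log2 fold change 0.92, edgeR adjusted p = 3e-06). In the other direction, MRPS33 had 13.6, 13.7 and 18.5 CPM in shNT and 5.10, 7.24 and 8.14 CPM in the libraries labelled shCDK12, a log2 fold change of -1.11 (SE 0.27, edgeR adjusted p = 0.000947). MRPS6, the counterpart of bacterial S6, fell by 1.10 on the log2 scale (edgeR adjusted p = 2.9e-06) and MRPS10 by 1.03 (edgeR adjusted p = 1.68e-06). Of the exon bases of MRPS6, 33.1% overlap other genes on the same strand, SLC5A3 among them. MRPS16 and MRPL49, the members with the highest CPM, fell by 0.94 and 0.90 on the log2 scale (edgeR adjusted p = 3.11e-09 and 8.05e-09). MRPS18A fell by 0.67 (edgeR adjusted p = 3.97e-05), and MRPL24, a large-subunit protein, by 0.99 (edgeR adjusted p = 2.15e-05).

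Other named members rose by less. MRPL3, MRPL32, MRPL44 and MRPL58 had log2 fold changes of 0.29, 0.27, 0.31 and 0.44, with edgeR adjusted p of 0.0337, 0.0189, 0.0171 and 0.0138. Each of these 4 calls was lost without 2 or 3 of the 6 libraries, where the edgeR adjusted p reached 0.152, 0.0971, 0.101 and 0.13 in the same order. MRPS12 and MRPS18B had log2 fold changes of -0.03 and -0.04 with overlapping groups, and their sign changed with the scaling. MRPL12 could not be tested. Its level was 6.08 ± 1.42 CPM in shNT against 3.09 ± 1.24 CPM (SD, n = 3) in the libraries labelled shCDK12, and the groups did not overlap.

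The libraries labelled shCDK12_OHT were set against those labelled shCDK12 to ask how the OHT response looks in that arm. Most fold changes were negative. Of 72 tested, 8 were higher (11.1%), against 27.5% of 12519 genes, and 16 were lower (22.2%), against 21.5%. Across all genes 48.9% were called. In all, 54 of the 72 were below 0, with a median of -0.13, whereas the median of all genes was 0.05. The split depended on the scaling, for the members and for all genes alike. DESeq2 gave 3 members higher and 20 lower, with 2767 of all genes higher and 2900 lower, against 3442 and 2686 with TMM. Upper-quartile scaling gave 4 members higher and 22 lower, with 2957 and 3226 of all genes. Without shCDK12_OHT replicate 2 or 3, 3 members were higher (4.23% and 4.17%), against 22.2% and 23.4% of all genes. Without shCDK12 replicate 1 the median of the members was -0.21.

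MRPS34, MRPL4 and MRPS17 had the largest decreases. MRPS34 had 93.1, 123 and 126 CPM in the libraries labelled shCDK12 and 58.0, 73.4 and 71.8 CPM in those labelled shCDK12_OHT, a log2 fold change of -0.75 (SE 0.12, edgeR adjusted p = 4.19e-05). MRPL4, a large-subunit protein that lines the peptide exit tunnel in its bacterial counterpart, had 59.1, 56.6 and 63.1 CPM against 32.9, 37.3 and 35.7 CPM. It fell by 0.75 on the log2 scale (SE 0.11, edgeR adjusted p = 1.69e-05). MRPS17 had 117, 91.6 and 102.5 CPM against 53.3, 63.8 and 68.6 CPM and fell by 0.74 (SE 0.11, edgeR adjusted p = 3.18e-05). In all 3 genes, each treated library lay below each untreated library, which the rule for naming members required. MRPL24, MRPS33 and MRPL30 had the largest increases, at log2 fold changes of 0.65, 0.65 and 0.47 (edgeR adjusted p = 0.00203, 0.0313 and 0.000597). MRPL24 had 19.0, 16.3 and 21.7 CPM without OHT and 26.2, 27.95 and 35.01 CPM with it, still below the lowest shNT library at 35.1 CPM. The call of MRPS33 was lost without shCDK12 replicate 1 or shCDK12_OHT replicate 3, with an edgeR adjusted p of up to 0.176. MRPS16, MRPL49 and MRPS18A rose by log2 fold changes of 0.26, 0.24 and 0.36 (edgeR adjusted p = 0.0161, 0.0298 and 0.0078), and each of these calls was lost without shCDK12_OHT replicate 2. Over the libraries left out, their edgeR adjusted p reached 0.0799, 0.123 and 0.0565. MRPL58 fell by 0.31 (edgeR adjusted p = 0.0264), a call lost without 4 of the 6 libraries, where the p reached 0.142. With all libraries thinned to the depth of the shallowest, its log2 fold change was 0.005.

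**Figure D3:**
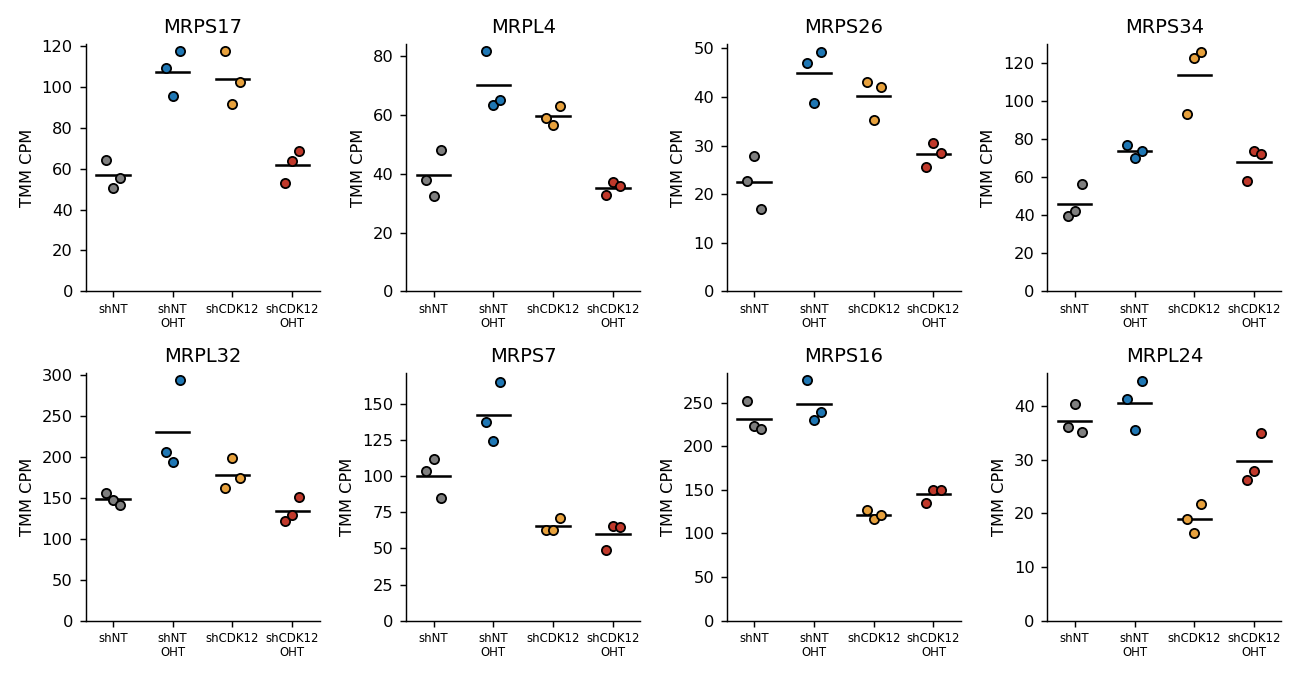
TMM CPM (vertical axis, from 0) of 8 named members in each of the 12 libraries, by group, with a line at the mean of 3 libraries. MRPS17, MRPL4 and MRPS26 are high in shNT_OHT and in the libraries labelled shCDK12, whereas MRPS16 and MRPL24 are lower in both groups labelled shCDK12 than in shNT.

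The last comparison of groups set the libraries labelled shCDK12_OHT against shNT_OHT, to ask what CDK12 silencing does upon MycER activation. Here CDK12 was lower in the libraries labelled shCDK12_OHT. The fold change of 58 of 72 members was negative. Among the 72, 31 were lower (43.1%), against 21.6% of 11668 genes, and 3 were higher (4.17%), against 23.8%. Across all genes 45.4% were called. The median log2 fold change was -0.40, whereas the median of all genes was 0.05. MRPS genes counted 16 lower of 26 with a median of -0.63, and MRPL genes 15 lower and 3 higher of 46 with a median of -0.18. No MRPS gene was called higher by edgeR or DESeq2, against 23.8% and 21.3% of all genes. None had a positive fold change at an unadjusted p under 0.05 by either tool. In each of the 31 members called lower, the libraries labelled shCDK12_OHT lay below all 3 shNT_OHT libraries, which also held for 96.5% of the 2522 genes called lower. Of the 31, MRPL23 and MRPS18C passed the filter only through shNT_OHT, where they are high, and the other 29 had a mean normalized count above 32 in both groups. The median stayed negative with the length trend removed, at -0.27.

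MRPS6 had the largest decrease. It had 40.7, 89.9 and 88.2 CPM in shNT_OHT and 21.1, 23.5 and 26.9 CPM in the libraries labelled shCDK12_OHT, a log2 fold change of -1.57 (SE 0.26, edgeR adjusted p = 0.000787). MRPS7, the counterpart of bacterial S7, which nucleates assembly of the head of the small subunit, had 138, 125 and 166 CPM against 49.04, 65.6 and 65.1 CPM. It fell by 1.24 (SE 0.16, edgeR adjusted p = 0.000144). MRPL23, whose bacterial counterpart sits at the exit of the peptide tunnel, had only 13 to 39 counts in these 6 libraries, 8.46, 10.7 and 7.83 CPM against 4.35, 3.71 and 3.08 CPM, and a log2 fold change of -1.197 (edgeR adjusted p = 0.00864). Its mean normalized count was 46.8 in shNT_OHT and 19.3 in the other group, and it was not tested in any other comparison. MRPL23 passed the filter only through the group where it is high, so no conclusion is drawn from its call. MRPL30 and MRPL44, an RNase III-related large-subunit protein, were the called members that were higher with no overlap, at log2 fold changes of 0.53 and 0.39 (edgeR adjusted p = 0.0187 and 0.0219). The MRPL30 call was lost without shCDK12_OHT replicate 3 (edgeR adjusted p = 0.0973) and the MRPL44 call without any of 4 libraries, at up to 0.123. MRPL1, the other member called higher, had overlapping groups and is named after its values were seen.

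The other named members followed the list in part. MRPS16 and MRPL49 fell by 0.76 and 0.97 on the log2 scale (edgeR adjusted p = 0.000411 and 0.000281), from 248 ± 24.2 to 145 ± 8.23 CPM and from 344 ± 63.0 to 174 ± 11.8 CPM (SD, n = 3). MRPL32 fell by 0.78 (edgeR adjusted p = 0.0026). MRPS12, MRPS18A and MRPS18C fell by 0.40, 0.58 and 0.88 (edgeR adjusted p = 0.0333, 0.0167 and 0.0443), and each of these calls was lost without shCDK12_OHT replicate 1 or 3, with adjusted p of up to 0.152, 0.0779 and 0.168. The MRPS12 call was also lost without replicate 2. MRPS18C had only 9 to 62 counts in these libraries, with a mean normalized count of 43.0 in shNT_OHT and 23.0 in the other group. It passed the filter only through the group where it is high, so no conclusion is drawn from its call. Of its exon bases, 83.6% overlap ABRAXAS1 on the opposite strand. MRPS18B, MRPL58 and MRPL3 had log2 fold changes of -0.35, -0.22 and 0.07 (edgeR adjusted p = 0.0727, 0.221 and 0.858).

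Whether the OHT response differed between the arms was tested as an interaction in a fit of all 12 libraries. The term is the log2 fold change upon OHT in the libraries labelled shCDK12 minus that in shNT. Of 70 members tested, 27 were called with a negative term (38.6%), against 19.6% of 11699 genes, and none with a positive term, against 25.6%. In all, 56 terms were below 0 and 14 above. Across all genes 45.2% were called. At an unadjusted p under 0.05, 2 members were positive by edgeR and 1 by DESeq2. In either direction, edgeR placed 34 members and 6099 of the 11699 genes under that p. DESeq2 called 30 members negative (42.9%) and 0 positive, against 22.3% and 23.6% of all genes. The median term was -0.40, against 0.10 for all genes. Upper-quartile scaling moved the median of all genes to -0.02 and that of the members to -0.51, with 33 called negative (47.1%), against 23.7% of all genes. With the length trend removed the median of the members was -0.31, with 23 called negative (32.9%) and 2 positive, against 21.8% and 22.3% of all genes. With length and GC trends removed it was -0.29, with 28 called negative (40.0%) and 2 positive, against 24.8% and 25.6% of all genes. The members called positive in both of these fits were MRPL24 and MRPS16. With the replicate block, without shNT_OHT replicate 2 and without shNT_OHT replicate 3, 1 member (1.43%) was called positive in each fit. Of all genes, 26.1%, 26.9% and 25.3% were, in the same order. MRPS genes had 14 of 25 called and a median of -0.70, and MRPL genes 13 of 45 and a median of -0.27.

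MRPS17, MRPL4 and MRPS26 had the most negative terms, at -1.68, -1.63 and -1.47 (SE 0.20, 0.21 and 0.25, edgeR adjusted p = 1.35e-06, 4.77e-06 and 6.93e-05). Of their exon bases, 26.4% in MRPS17 overlap a gene on the same strand, 39.7% in MRPL4 overlap genes on the opposite strand, and 0.0% in MRPS26 overlap another gene. Their CPM in the 4 groups shows how the term arose. MRPL4 had 39.5 ± 7.97 CPM in shNT, 70.2 ± 10.1 in shNT_OHT, 59.6 ± 3.30 in the libraries labelled shCDK12 and 35.3 ± 2.23 in those labelled shCDK12_OHT (SD, n = 3). The libraries labelled shCDK12_OHT, at 32.9 to 37.3 CPM, overlapped with shNT, at 32.4 to 48.1 CPM, and those of the other groups lay above both. Besides MRPL4, MRPS17 and MRPS26, the same 5 calls (higher, higher, lower, lower, lower in the order above) were made for MRPL32, MRPL36, MRPS2 and MRPS25, 7 members in all, of which MRPL36, MRPS2 and MRPS25 are named after their values were seen. Not all of these calls were stable. The MRPS26 call in the libraries labelled shCDK12_OHT against shNT_OHT was lost without shCDK12_OHT replicate 1 (edgeR adjusted p = 0.05005), and the MRPL32 call in those labelled shCDK12 against shNT was lost without 3 libraries, as given above. The call upon OHT in shNT was lost for MRPL4 without shNT replicate 1 or 2 (edgeR adjusted p up to 0.0878) and for MRPL32 without shNT replicate 2 or 3 or shNT_OHT replicate 3 (edgeR adjusted p up to 0.0665). The interaction terms of MRPS17, MRPL4, MRPS26 and MRPL32 kept an edgeR adjusted p of at most 0.000894 without any of the 12 libraries. A second pattern, lower in the libraries labelled shCDK12, higher upon OHT there and still lower than shNT_OHT, with no call in shNT_OHT against shNT or the interaction, held for MRPL49, MRPS16 and MRPS18A. No comparison called 18 of the members tested in all 5. The 4 comparisons share groups of libraries, so these patterns are not independent of each other. The share of all genes with each pattern is not given here, so these counts only describe the members.

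**Figure D4:**
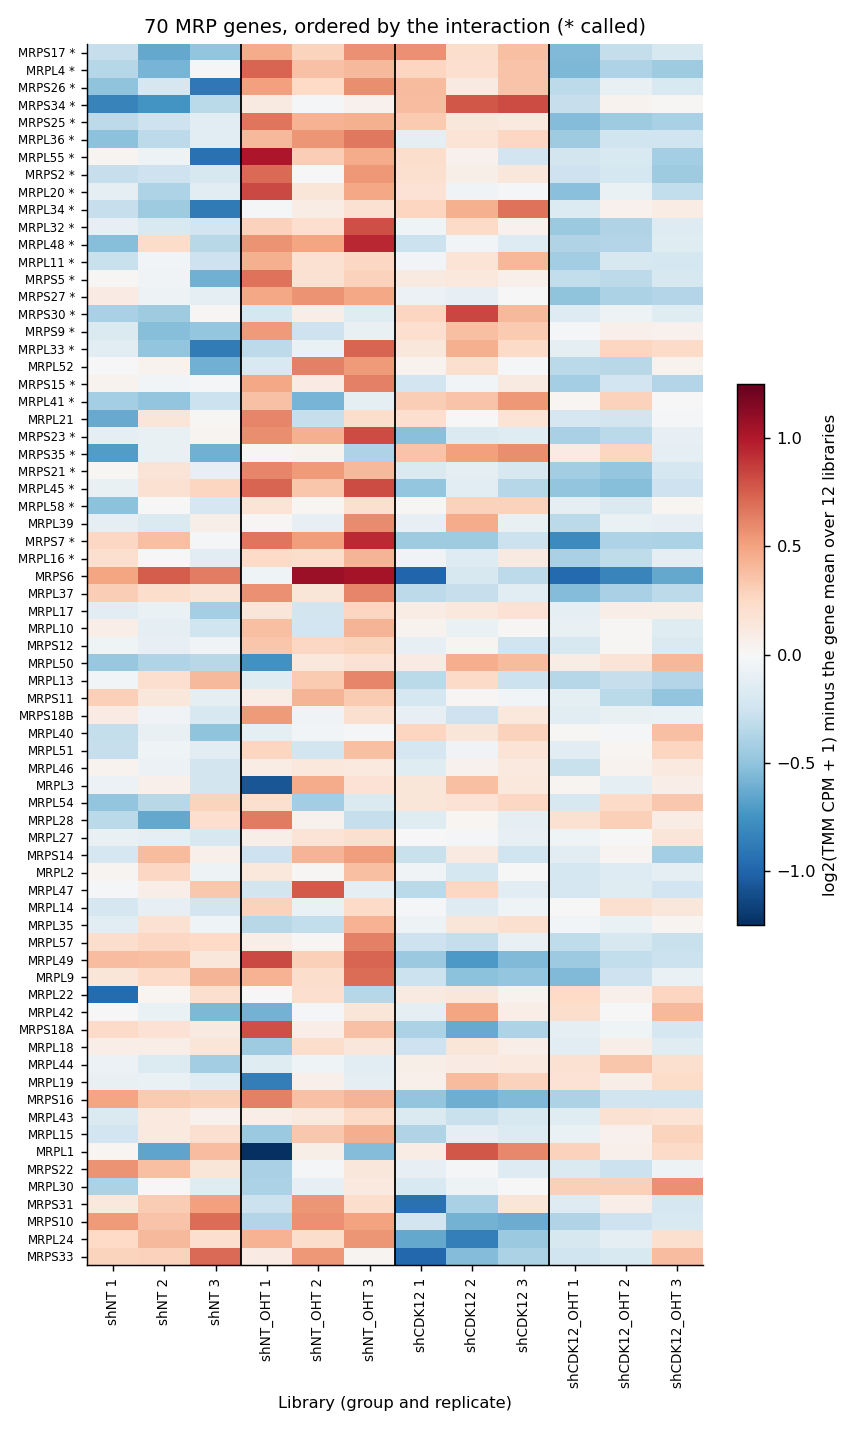
Log2(TMM CPM + 1) of 70 members minus the mean of each gene over 12 libraries, with libraries in columns by group and genes in rows from the most negative to the most positive interaction term (* called). The uppermost genes are mostly red in shNT_OHT and the libraries labelled shCDK12 and blue in shNT and the libraries labelled shCDK12_OHT, and MRPL24, MRPS10 and MRPS33 at the bottom are blue in the libraries labelled shCDK12.

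The shNT pair and the pair labelled shCDK12 have no library in common, so that their OHT responses can be set side by side. Of the 69 members tested in both, 48 had a positive fold change in shNT and a negative one in the libraries labelled shCDK12. A further 14 were positive in both, 4 negative in both and 3 negative in shNT and positive in those labelled shCDK12. The share with opposite signs was 73.9%, and across all 10233 genes it was 71.1%, so opposite signs were not particular to the members. All genes were divided more evenly between the opposite directions, with 3274 up in shNT and down in those labelled shCDK12 and 4003 the other way. Across the members the Pearson r of the responses was -0.582, and across all genes it was -0.620, as a description over genes, which are not independent replicates.

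**Figure D5:**
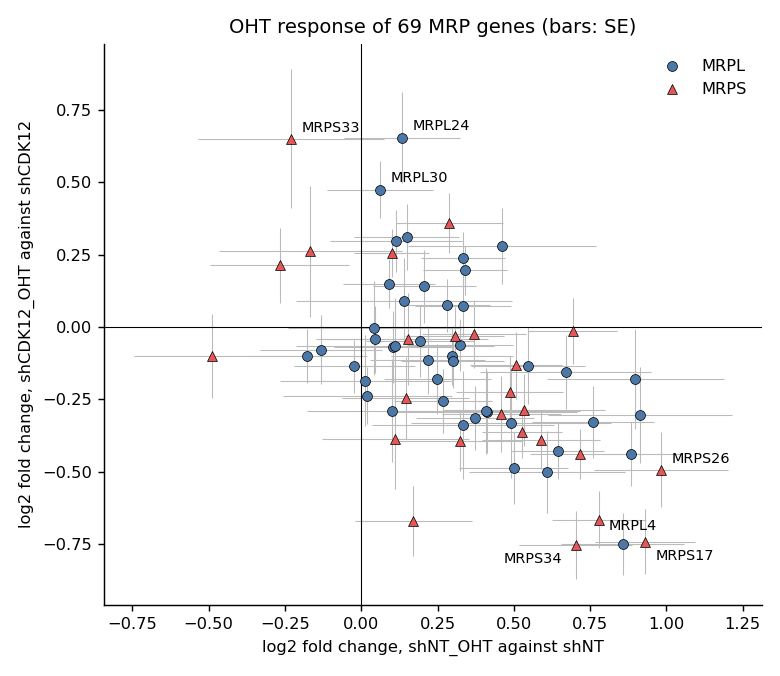
Log2 fold change upon OHT in shNT (horizontal axis) against that in the libraries labelled shCDK12 (vertical axis) for 69 members, circles for MRPL and triangles for MRPS, with SE bars. Most points, 48 of 69, lie in the lower right quadrant.

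The other proteins and factors of mitochondrial translation were read from lists apart from the members. The 5 mitoribosomal proteins with other symbols were all tested. GADD45GIP1, also called CRIF1, a large-subunit protein, had 14.4 CPM in shNT and 25.9 CPM in shNT_OHT and rose by a log2 fold change of 0.86 (SE 0.27, edgeR adjusted p = 0.0425). Its interaction term was -1.31 (edgeR adjusted p = 0.00121). PTCD3, a pentatricopeptide repeat protein of the small subunit, had 117, 152, 178 and 115 CPM in shNT, shNT_OHT and the libraries labelled shCDK12 and shCDK12_OHT. Its term was -1.02 (edgeR adjusted p = 1.67e-05). DAP3, a GTP-binding small-subunit protein, had no call upon OHT in either arm, and in the libraries labelled shCDK12 it fell by 0.40 (edgeR adjusted p = 0.0154).

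In shNT_OHT against shNT, 9.05% of all genes were called higher and 17.3% were called in either direction. Of the 15 mitochondrial translation factors, 13 were tested there and 1 was called. This was TUFM, the mitochondrial elongation factor Tu, at 48.8 CPM in shNT and 117 CPM in shNT_OHT, with a log2 fold change of 1.26 (SE 0.17, edgeR adjusted p = 0.000207). TUFM also stood at 109 CPM in the libraries labelled shCDK12 and at 61.3 CPM in those labelled shCDK12_OHT, the same order of group means as MRPS17. Its interaction term of -2.09 (SE 0.19, edgeR adjusted p = 4.09e-08) was larger in size than that of any member. OXA1L, which inserts proteins into the inner membrane, fell by 1.23 in the libraries labelled shCDK12 (edgeR adjusted p = 3.52e-08). Of the list, 5 of 14 had a called interaction, each negative (35.7%, against 19.6% of all genes). DESeq2 called 7, each negative (50.0%, against 22.3% of all genes).

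Among 23 factors for mitoribosome assembly and ribosomal RNA modification, 5 of 21 tested were called higher in shNT_OHT (23.8%, against 9.05% of all genes) and none lower. At an unadjusted p under 0.05, edgeR placed 8 higher and 0 lower, and 3316 of all 10272 genes in either direction. DESeq2 called 5 higher (23.8%) and 0 lower, against 10.6% and 7.68% of all genes. DDX28, an RNA helicase of large-subunit assembly, had 126 CPM in shNT and 233 CPM in shNT_OHT (log2 fold change 0.89, edgeR adjusted p = 0.00133), and MRM3, which methylates the large ribosomal RNA, had 43.6 and 76.9 CPM (log2 fold change 0.81, edgeR adjusted p = 0.0062). The median of this list was 0.30, close to the 0.31 of the members. In the interaction 7 of 22 were called, each negative (31.8%, against 19.6% of all genes), led by MPV17L2 at -1.69 and MRM3 at -1.37 (edgeR adjusted p = 0.000858 and 1.13e-05). Of the 10 genes for mitochondrial transcription and RNA handling, 1 was called higher in shNT_OHT, against 9.05% of all genes. It was TWNK, the replicative helicase, and the median of the list was 0.04. TFAM, the main packaging factor of mitochondrial DNA, stood at 250.8 CPM in shNT, 268 CPM in shNT_OHT and 507 CPM under the label shCDK12 (log2 fold change 1.01, edgeR adjusted p = 7.09e-09).

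Cytosolic ribosomal protein genes and nuclear genes of the respiratory complexes were taken as the most like sets. Of 84 cytosolic ribosomal protein genes tested, 35 rose in shNT_OHT (41.7%, against 9.05% of all genes) and none was called lower, with a median of 0.39. At an unadjusted p under 0.05, edgeR placed 49 of them higher and 2 lower, and 3316 of all 10272 genes in either direction. DESeq2 called 38 of them higher (45.2%) and 0 lower, against 10.6% and 7.68% of all genes. In the interaction 49 were called negative (58.3%, against 19.6% of all genes) and 1 positive, with a median of -0.61. RPL35 led the increases, with a log2 fold change of 0.96 (SE 0.17, edgeR adjusted p = 0.00187). Of 64 respiratory genes, 3 rose (4.69%) and 1 fell (1.56%) in shNT_OHT, with a median of 0.16. NDUFB11, a subunit of complex I, rose by a log2 fold change of 0.79 (edgeR adjusted p = 0.0304), whereas NDUFS1, which encodes its largest subunit, fell by 0.61 (edgeR adjusted p = 0.0495). In the interaction 7 respiratory genes were called positive and 7 negative of 71 (9.86% each), with a median of -0.02. The negative calls and the medians place the members between both sets in the interaction. The share called positive was 0.0% in the members, below 1.19% and 9.86% in the cytosolic and respiratory sets. The difference between the lists was not tested. The median span was 5046 bases for the cytosolic ribosomal protein genes and 10552 bases for the respiratory genes, against 8667 bases for the members.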

How the data were processed

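The deposited table holds raw counts per gene for 12 EU-seq libraries (TruSeq Stranded Total RNA), which the authors did not normalize. The submitters' processing notes name STAR 2.7.5c, featureCounts 1.4.5-p1 and hg19. Settings for strand and shared bases are not given in the sources used here. Of 23434 rows, 150 had no symbol in RefSeq. Symbols and gene spans were matched by gene ID to RefSeq (GRCh38.p14), and exon lengths, GC and overlaps came from GENCODE v44, so no coordinates of counts are given.

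Counts were tested with edgeR 4.0.16 (R 4.3.3), quasi-likelihood with TMM scaling, keeping genes whose normalized count averaged more than 32 in the fitted libraries. Each comparison of 2 groups used its 6 libraries and the interaction all 12, with no covariate. The SE is the size of the log2 fold change divided by the square root of F. Calls were at a Benjamini-Hochberg adjusted p under 0.05 over all genes tested. The code was tested on simulated data. Counts give counting precision of total depth 1251695 to 10447836, and no pair of replicates agreed within sampling noise. Alternatives were DESeq2 1.42.0, upper-quartile scaling, no filter, filterByExpr, a replicate block, all 12 libraries in 1 fit, libraries thinned to 1251695 counts, a length trend removed and each library left out. A fit with length and GC trends removed was added after seeing the data.

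Named members were the 3 with the largest positive and 3 with the largest negative change per comparison among called members whose groups did not overlap (interaction: called only), plus MRPL3, MRPL12, MRPL58, MRPS12, MRPS18A, MRPS18B, MRPS18C, the 3 highest and the 3 lowest by mean CPM, and CDK12. In the other lists, they were the 2 largest and 2 smallest changes among called genes per comparison. The members and lists were chosen with earlier results of these data known. The libraries labelled shCDK12 are named by their labels because CDK12 went against 1 of them.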

Additional observations from a re-analysis of the deposited data

Results flagged for a closer look

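The OHT response of 27 MRP genes differed between the arms by the interaction test of edgeR, each more negative in the libraries labelled shCDK12. They were 38.6% of the 70 members tested, against 45.2% of all genes called in either direction and 19.6% called negative. Among named members, the interaction log2 fold change was -1.68 for MRPS17, -1.63 for MRPL4, -1.47 for MRPS26, -1.47 for MRPS34 and -1.21 for MRPL55. It was -1.09 for MRPL34, -1.07 for MRPL32, -0.70 for MRPS35, -0.68 for MRPL58 and -0.64 for MRPS7. The calls of MRPS35 and MRPS7 were each lost without 2 of the 12 libraries, at edgeR adjusted p of up to 0.0656 for MRPS35 (without shNT replicate 1 or shCDK12_OHT replicate 3) and 0.0511 for MRPS7 (without shNT_OHT replicate 3 or shCDK12_OHT replicate 1). With libraries thinned to the depth of the shallowest, the calls of MRPL58 and MRPS7 were lost, at log2 fold changes of -0.35 and -0.37 (edgeR adjusted p = 0.284 and 0.270). The call of MRPS7 was also lost with the length trend removed (edgeR adjusted p = 0.0602). CDK12, the gene targeted by the shRNA, had a term of -0.83, since it was higher in shNT_OHT than in shNT and lower in the libraries labelled shCDK12_OHT than in those labelled shCDK12. Groups of 3 libraries are too small for a test of single outlying samples.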

How the results depend on the processing

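The median log2 fold change of the members kept its sign in all 5 comparisons under every alternative run, and the summed level of all members kept its direction with plain library totals and with the mean of member log2 CPM. Over 70 results of named genes, 33 kept direction and side of the threshold under every alternative, 16 lost the call in at least 1, 8 gained it in at least 1, and 13, none of them called except MRPL58 in shCDK12_OHT against shCDK12, changed sign in at least 1. The cause was not tested.

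With all 12 libraries in 1 fit, 3256 genes and 23 members were called in shNT_OHT against shNT. These members were all higher (32.9%), against 13.5% of all genes. In shCDK12_OHT against shCDK12, 15 members were called. Of the members tested, 2.86% were higher and 18.6% lower there, against 21.5% and 15.9% of all genes. With libraries thinned, fewer genes were tested, and 4492 genes were called in shCDK12 against shNT, 3200 genes and 15 members in shCDK12_OHT against shCDK12, 3097 genes in shCDK12_OHT against shNT_OHT and 3198 in the interaction. The median of the members became 0.18 in shNT_OHT against shNT with length and GC trends removed (added after seeing the data) and 0.1811 in shCDK12 against shNT with upper-quartile scaling. Without each library in turn, called genes ran from 670 (without shNT replicate 2) to 2523 and called members from 4 to 23 in shNT_OHT against shNT, where 751 and 818 genes were called without shNT replicates 1 and 3 and 1101 without shNT_OHT replicate 3. Called genes ran from 3520 (without shCDK12_OHT replicate 2, and 3527 without replicate 1) to 6238 in shCDK12_OHT against shNT_OHT, and the median of the members from 0.0629 to 0.175 (without shNT replicate 2, and 0.145 without shCDK12 replicate 1) in shCDK12 against shNT.

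The log2 fold changes that changed sign were the following. In shNT_OHT against shNT, MRPS16 was -0.0947 and -0.073 with the length trend and with length and GC trends removed, and MRPL3 ran from -0.216 to 0.381 without single libraries. In shCDK12 against shNT, MRPS12 was 0.0056 with DESeq2, 0.0623 with upper-quartile scaling and 0.0063 thinned, and ran from -0.109 to 0.0465 without single libraries. MRPS18B was 0.0506 with upper-quartile scaling, 0.107 thinned, 0.0247 with the length trend removed and 0.0662 with both trends removed, and ran from -0.147 to 0.0553. CDK12 was 0.0145 with upper-quartile scaling, 0.0216 with the length trend and 0.0318 with both trends removed. In shCDK12_OHT against shCDK12, MRPL58 was 0.005 thinned, MRPS12 was 0.0356 and 0.004 with the length trend and both trends removed and ran from -0.102 to 0.0568 without single libraries, and MRPS18B ran from -0.138 to 0.0798. In shCDK12_OHT against shNT_OHT, MRPL3 was -0.0034 with DESeq2, -0.267 thinned, -0.0107 with the length trend and -0.0396 with both trends removed and ran from -0.304 to 0.291 without single libraries, and MRPL58 was 0.0052 with both trends removed. In the interaction, MRPL49 was 0.0938 and 0.124 with the length trend and both trends removed, and MRPL3 ran from -0.601 to 0.0137. MRPS18A was -0.0107 with DESeq2, -0.0677 with upper-quartile scaling and -0.004 thinned, and ran from -0.0687 to 0.281.

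The labels number the replicates 1 to 3 in each group without saying that a number marks a shared day. Deviations of libraries with the same number had correlations of -0.117 to 0.365, over 0.1 in 4 of 18 pairs, against 1 of 36 pairs with different numbers, and 23 of 36 best matches of a library in another group had its own number. The highest, 0.324 and 0.365, lay between shNT_OHT and the libraries labelled shCDK12, for replicates 1 and 2 in turn, and replicate 3 had 0.001 there. The other same-number pairs over 0.1, at 0.103 and 0.104, lay between shNT and the libraries labelled shCDK12. These correlations are a hint from the data that some libraries may share by number. As not every pair was over 0.1, the numbers were not taken to pair the libraries. With the replicate block, 15, 37, 25, 29 and 27 members were called in the 5 comparisons in the order of the report, against 15, 37, 24, 34 and 27 without it, and MRPL3 had a log2 fold change of -0.0593 in shNT_OHT against shNT. Depth limits the members with the fewest counts. Of the 77, 8 could not be tested in shNT_OHT against shNT, and the shallowest library had a median of 66 counts per member.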
